A study of Mus musculus with 6 samples.

Results

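The acyl-CoA thioesterase genes of the Acot family were followed through 4 lists of ATF4 ChIP-seq peaks from mouse embryonic fibroblasts (MEFs). The 10 genes were Acot1 to Acot8, Acot11 and Acot12, and a peak was taken as theirs where the lists name the gene as nearest, at any distance. They were chosen by the score of the Acot2 promoter peak in these same lists, so the scores of that peak are given as a description and no test rests on them. Of 17462 peaks in the 4 lists, 9 carried the name of a member. They belonged to 4 of the 10 genes (Acot2, Acot7, Acot11 and Acot12), whereas Acot1, Acot3, Acot4, Acot5, Acot6 and Acot8 had none in any list. Of all 21883 protein-coding genes, 34.4% were named for a peak in some list.

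The study asked where ATF4, the transcription factor that acts downstream of the amino acid sensor GCN2, is bound when leucine is missing. Primary Wild-type (WT) and GCN2-/- (GCN2 KO) MEFs of the 129S6/SvEvTac strain were kept for 24 h in complete DMEM (+Leu) or in DMEM without leucine (-Leu), and ATF4 was precipitated from crosslinked chromatin with the antibody sc-200. Each condition was sequenced as 1 library, for which the chromatin of 2 independent experiments (at least 5 replicates in each) had been combined, so there is no replicate and no test between conditions. GCN2 is the only gene that the labels give as differing between the genotypes. According to the file headers, the -Leu libraries were also called against input from cells of their genotype grown with leucine. WT cells gave 4850 peaks with leucine and 6374 without it, and GCN2 KO cells gave 3566 and 2672, with median scores of 29 to 30 and a lowest score of 13. Sequencing depth is not given in the lists, so how precise a score is cannot be told and scores cannot be scaled between libraries. A list of ATF4 peaks does not show RNA or protein levels, and the fibroblast label could not be checked against marker genes.

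Acyl-CoA thioesterases split acyl-CoA into a free fatty acid and coenzyme A, and so help set how much of each is free in a compartment of the cell. The type I enzymes are close relatives encoded side by side: Acot1 is cytosolic, Acot2 sits in the mitochondrial matrix, where fatty acids are oxidised, and Acot3, Acot4 and Acot5 are peroxisomal. Acot7, Acot8, Acot11 and Acot12 are encoded elsewhere. ATF4 binds DNA as a heterodimer with C/EBP proteins at a composite C/EBP-ATF response element, whose core is often written TGATGCAA.

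The Acot2 gene lies on the plus strand of mouse chromosome 12, chr12:83987861-83993873 in mm10 (GRCm38), with 1 annotated start site (TSS). The listed windows of 301 bases differ a little between lists. The 249 bases common to all 4 of them, chr12:83987446-83987694, lie from -415 to -167 bp of the TSS and are printed here because every ATF4 peak of Acot2 covers them. The sequence is that of the GRCm38 plus strand, 5′ to 3′, with the motif found in it in capitals.
Acot2 shared: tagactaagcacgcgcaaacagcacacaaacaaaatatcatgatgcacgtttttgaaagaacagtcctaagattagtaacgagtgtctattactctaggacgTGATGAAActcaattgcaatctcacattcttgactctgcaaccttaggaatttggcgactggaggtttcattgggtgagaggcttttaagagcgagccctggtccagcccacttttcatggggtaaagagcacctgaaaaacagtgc

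These bases held 43.8% G or C, and none of them is masked as a repeat. The capitals mark TGATGAAA on the plus strand at chr12:83987548-83987555, -313 to -306 bp from the TSS. TGATGAAA and TGATGCAA are both forms of TGATGNAA, in which N is any base. No exact TGATGCAA was present on either strand of any of the 9 member peaks, searched over the whole window.

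The same 8 letters stood in the peak of Asns, which encodes asparagine synthetase and is a long-studied ATF4 target. To set the Acot2 motif beside those of genes close to it in rank pattern (described further on), 32 bases around the match nearest to the center of the WT -Leu peak are given, each on the strand that carries the motif, with the motif in capitals. The stretches are chr12:83987536-83987567 (plus) for Acot2, chr6:7693213-7693244 (minus) for Asns, chr3:108444189-108444220 (minus) for Sars and chr2:152350065-152350096 (minus) for Gm14164.
Acot2: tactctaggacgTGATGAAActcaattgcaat
Asns: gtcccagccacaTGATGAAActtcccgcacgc
Sars: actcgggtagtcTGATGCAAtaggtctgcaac
Gm14164: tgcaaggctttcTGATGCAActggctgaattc

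Of these 4 stretches, those of Acot2 and Asns held TGATGAAA, and the other 2 held TGATGCAA. The motif was followed by CT in Acot2, Asns and Gm14164, and by TA in Sars. Arl14ep, another gene of that group, had no TGATGNAA in its window.

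Acot2 had a promoter peak in all 4 lists. In WT +Leu it scored 141, ranked 53 of 4850 peaks and was centered at -317 bp. In WT -Leu it scored 1676, ranked 7 of 6374 and was centered at -312 bp. In GCN2 KO +Leu it scored 104, ranked 32 of 3566 and was centered at -265 bp. The peak was thus among the highest of its list in these 3 conditions, and by far the highest score was that of leucine-deprived WT cells. In GCN2 KO -Leu it scored 44, was centered at -286 bp and ranked 189 of 2672, a place shared with all 84 peaks of that score, which fill ranks 189 to 272. The percentile is the share of a list that scores no higher than the peak. In WT cells it was 98.9 (95% Wilson interval 98.6 to 99.2) with leucine and 99.9 (99.8 to 100) without it. In GCN2 KO cells it was 99.1 (98.8 to 99.4) with leucine and 93.0 (91.9 to 93.9) without it. The intervals treat the peaks of a list as random draws. They hold no error of the read counts or of the library, and they do not compare conditions. Among peaks annotated as promoter, Acot2 ranked 16 of 119 (+Leu) and 4 of 253 (-Leu) in WT, and 12 of 83 (+Leu) and 10 of 59 (-Leu) in GCN2 KO.

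**Figure D1:**
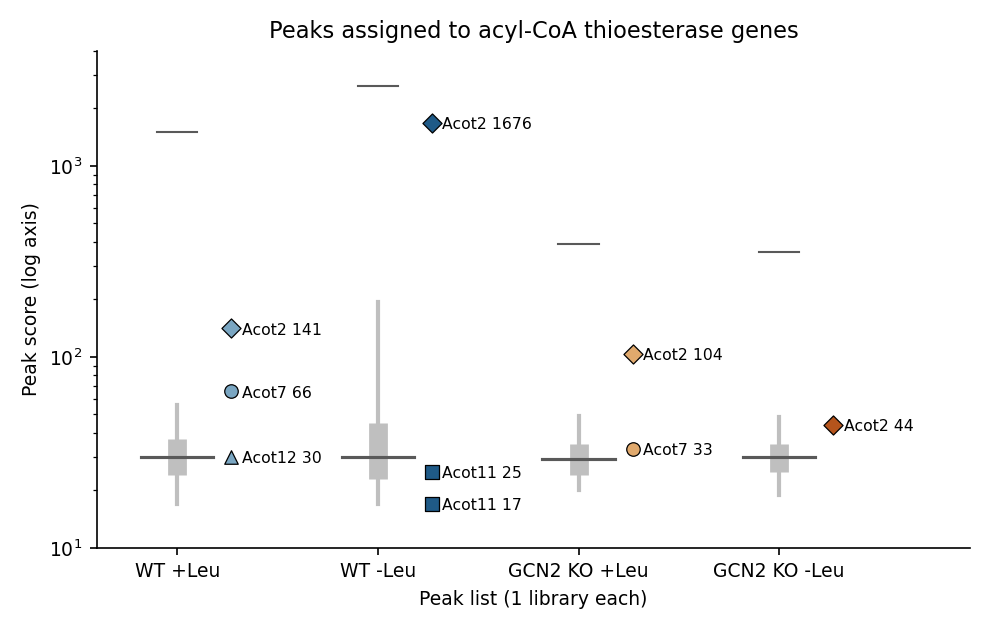
Score of each peak named for a member (symbols with gene and score, log axis) beside the score distribution of its list, 1 library each: the thick grey bar spans the middle part of the list from the lower to the upper quartile, the thin bar the 5th to the 95th percentile, the long line is the median and the short line the highest score. Acot2 stands at 141, 1676, 104 and 44, above the median of 29 to 30 in every list, and the other member peaks lie between 17 and 66.

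The peaks next to Acot2 in the WT -Leu ranking were all close to a TSS. Kdm6b, which encodes a histone demethylase, scored 1791 and Asns 1787 just above it. Arl14ep with 1582 and the transcription factor gene Atf5 with 1569 followed just below. In GCN2 KO -Leu the neighbours with the same score of 44 included an intergenic peak 280148 bp from a TSS.

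The 4 windows spanned 353 bp in all, and their centers lay within 52 bp of each other. The 2 WT centers were 5 bp apart and the 2 GCN2 KO centers 21 bp apart. Relative to the center of the window, the TGATGAAA began at 4 bp (+Leu) and -1 bp (-Leu) in WT, and at -48 bp (+Leu) and -27 bp (-Leu) in GCN2 KO. The center thus fell on the motif in WT -Leu, just before it in WT +Leu, and between it and the TSS in both GCN2 KO lists. Whether this shift exceeds the error of a summit could not be judged from 1 library each. G or C made up 43.5% to 44.5% of the windows, below the list medians of 51.8% to 53.2%.

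**Figure D2:**
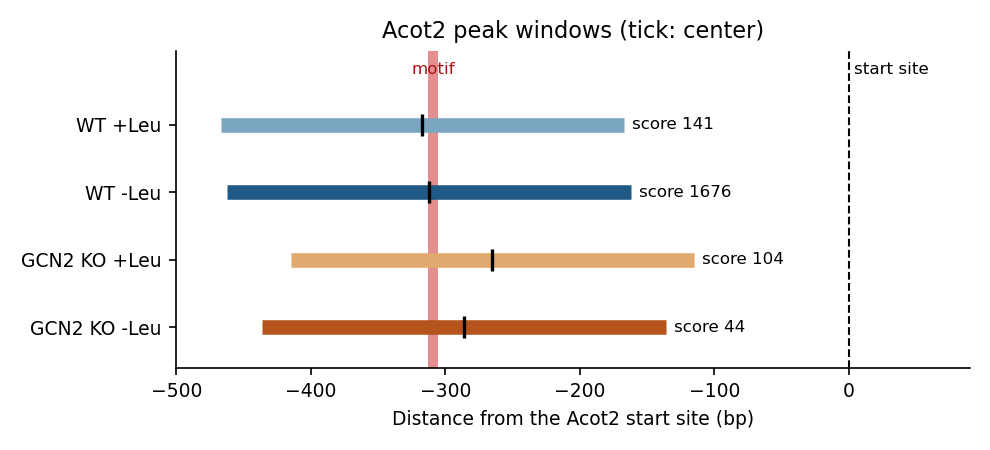
Position of the 4 Acot2 windows (bars, black tick at the center) in bp from the Acot2 TSS (dashed line), with the TGATGAAA match as a red band. The WT centers at -317 and -312 bp fall on or beside the band and the GCN2 KO centers at -265 and -286 bp lie nearer to the TSS.

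TGATGAAA was uncommon in the lists. Of the peaks on assembled chromosomes, 0.930% (+Leu) and 2.22% (-Leu) in WT held it within 50 bp of the center, and 0.451% (+Leu) and 0.602% (-Leu) in GCN2 KO. For TGATGNAA, which includes both TGATGAAA and TGATGCAA, the shares were 4.26% and 11% in WT and 2.23% and 2.26% in GCN2 KO. Among promoter peaks alone the TGATGNAA shares were 21.0% and 22.5% in WT and 19.3% and 8.47% in GCN2 KO, so the presence of such a match under a promoter peak was not rare. For TGATGAAA within 50 bp of the center, the shares among promoter peaks were 5.88% (+Leu) and 4.74% (-Leu) in WT. In GCN2 KO they were 3.61% (+Leu) and 1.69% (-Leu). Of the member peaks, the 4 of Acot2 held TGATGNAA and the other 5 did not. Among promoters taken from 500 bp before to 100 bp after 41469 protein-coding start sites, 7.04% held TGATGNAA, 2.22% TGATGAAA and 1.48% TGATGCAA on either strand. Of the 17 start sites of the 10 members, 2 held TGATGNAA: the Acot2 TSS, and an internal Acot7 TSS at chr4:152199810 with a TGATGCAA at -253 bp on the minus strand. No peak named for Acot7 lay at that internal start.

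The Acot2 score was higher without leucine in WT cells and lower without it in GCN2 KO cells. The lists of WT cells shared 308 sites, with centers at most 300 bp apart, and the score was higher in -Leu at 81.8% of them. At Acot2 it was 141 with leucine and 1676 without, a ratio of 11.9 that ranked 10 among the 308, where the median ratio was 2.36 (quartiles 1.27 and 4.56, highest 26.0). The 9 sites with a larger ratio began from scores of 27 to 76 in WT +Leu and reached 450 to 1251, all below Acot2 in WT -Leu. Of the 87 shared sites that scored at least 100 in WT +Leu, Acot2 had the highest ratio, and Gm5095 with 9.82 was next. The limit of 100 was not among the planned settings. It leaves out all 9 sites with a larger ratio, so the first place follows from the limit.

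In GCN2 KO cells the lists shared 98 sites, with a lower score in -Leu at 49.0%. Acot2 was on the lower side, with 104 with leucine and 44 without. Its ratio of 0.423 ranked 87 of 98 from the highest, against a median of 1 (quartiles 0.672 and 1.25, lowest 0.157). With leucine present the KO score was 0.738 of the WT score, rank 44 of 93 shared sites with a median of 0.667. Without leucine it was 0.0263 of the WT score, rank 80 of 81, and the median over those sites was 0.469. These ratios share lists with each other, the libraries were scored separately, and the difference between genotypes was not tested. The scale of the score is not stated, so none of these ratios is a fold change in bound ATF4.

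**Figure D3:**
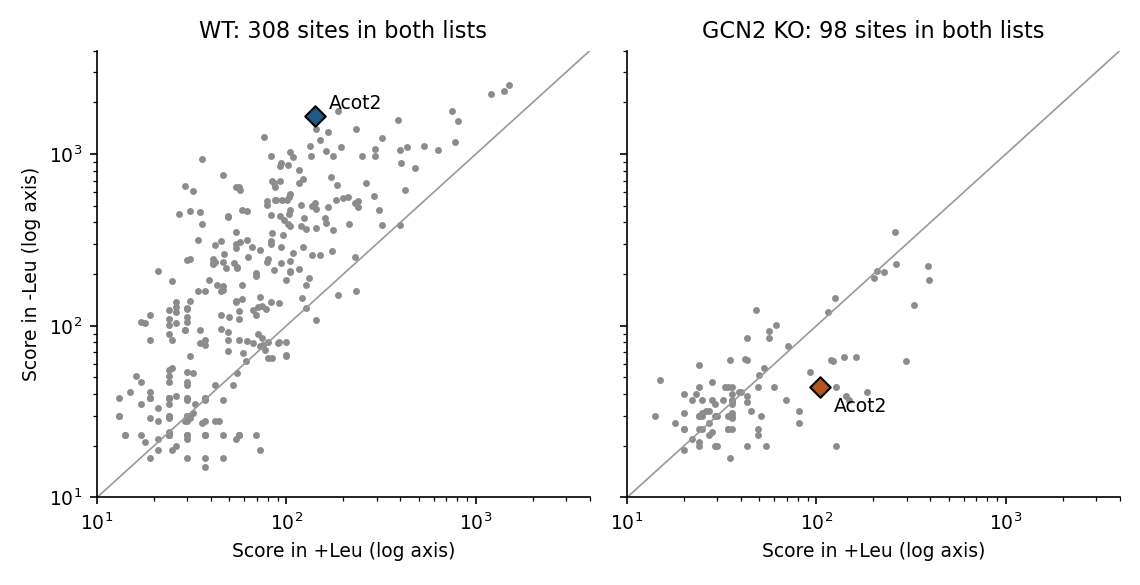
Score in -Leu against score in +Leu (log axes) at sites present in both lists of a genotype, WT on the left (308 sites) and GCN2 KO on the right (98 sites), with equal scores on the diagonal and Acot2 as a diamond. Acot2 lies at 141 and 1676 in WT, well above the diagonal, and at 104 and 44 in GCN2 KO, below the diagonal.

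Sites present in all 4 lists were few. There were 31, of which 28 lay on assembled chromosomes and 9 of those were promoter peaks. By the WT ratio Acot2 came highest of the 28 with 11.9, followed by an intergenic Tgif1 site at 9.73, and the median was 2.51. All 28 scored higher in WT -Leu than in WT +Leu. By the GCN2 KO ratio Acot2 was the 8th from the lowest, and 20 of the 28 had the lower score without leucine in GCN2 KO (median 0.657, from 0.157 at Eif1 to 1.52 at Tbc1d31). In the WT -Leu windows of these 28 sites, TGATGCAA was found in 17 and TGATGAAA in 6, of which Acot2 was 1 and Asns another. Every list had a peak within 5 kb for 0.0594% of protein-coding genes, 13 in all, and Acot2 was the member among them.

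The genes whose ranks were most like those of Acot2 were sought among the 17 genes that each list names for a peak no farther than 5 kb from a TSS, by the summed difference of percentiles over the 4 lists. Closest was Aars, for alanyl-tRNA synthetase, at 5.56 percentile points, with scores of 404 (+Leu) and 893 (-Leu) in WT and 93 (+Leu) and 54 (-Leu) in GCN2 KO. Gm14164 followed at 5.58 (144, 477, 49 and 44 in the same order) and Asns at 6.14 (746, 1787, 184 and 41). Arl14ep at 7.09 (390, 1582, 297 and 62) and Sars, for seryl-tRNA synthetase, at 7.23 (211, 559, 123 and 62) completed the closest 5. All of them had their highest score in WT -Leu, but so had every other gene of the 17 except Sfi1 (121, 173, 202 and 190). Acot2 began from a lower WT +Leu score than any of these 5. The sums rose only slowly, to 8.99 for Gm5627, the 12th in order, so the closest 5 do not stand apart. Likeness here is over 4 libraries only, and no shared control is inferred from it.

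The cluster that holds Acot2 also encodes Acot1, Acot4, Acot3, Acot5 and Acot6, in that order, all on the plus strand within 123 kb. Their longest coding sequences were aligned to that of Acot2 (1359 bases), with 1216 (Acot4) to 1269 (Acot3) bases paired. Over the paired bases alone, leaving out gaps, identity to Acot2 was 95.6% for Acot1, 84.8% for Acot5, 84.5% for Acot3, 78.1% for Acot4 and 76.8% for Acot6. No peak of any list was centered inside the cluster, from the Acot2 TSS to the end of Acot6. The nearest peak to Acot1 was therefore the Acot2 peak, 21.9 kb upstream in every list. It was also the nearest to Acot4 (50.8 kb), Acot3 (64.5 to 64.6 kb) and Acot5 (81.7 to 81.8 kb). For Acot6, the nearest peak was named for Elmsan1 in both WT lists, 72.0 kb (WT +Leu) and 93.5 kb (WT -Leu) away, and was that of Acot2 in both GCN2 KO lists, 113 kb away. Thus 1 gene of the cluster had a peak within 5 kb and the other 5 had none. With such a peak at 1.61% to 4.40% of protein-coding genes, depending on the list, the lack of a peak at those 5 is the usual case.

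Near-identical copies can keep reads from being placed, so the uniqueness of the sequence was measured. None of the 252 50-base words of each Acot2 window recurred on the assembled chromosomes, and each window had a single blastn match, itself. Over 5 kb to either side of the main TSS, the share of 50-base words that recur was 11.5% for Acot2, 8.66% for Acot1, 12.8% for Acot4, 11.8% for Acot3, 10.8% for Acot5 and 7.22% for Acot6. At least 87.2% of the words around each start were thus unique, also around the starts without a peak. These shares average exact words over the whole stretch. They cannot show whether a piece as short as a peak window is copied, or nearly copied, at the starts without a peak.

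The 200 kb to either side of the cluster held 10 peaks, 4 of them at Acot2. The other 6 all came from the WT lists, which are also the longer ones. These hold 4850 and 6374 peaks, against 3566 and 2672 in GCN2 KO, and the split was not tested. In WT +Leu they were named for Papln (37), Numb (30) and Elmsan1 (26), and in WT -Leu for Numb (43), Elmsan1 (299) and Ptgr2 (30), with the score in parentheses. The Elmsan1 peak of 299 was a promoter peak at -295 bp from its TSS, 206 kb from the Acot2 TSS, and ranked 182 of 6374. The nearest of the 6 upstream lay 81.7 kb before the Acot2 TSS and the nearest downstream 61.4 kb past the end of Acot6.

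**Figure D4:**
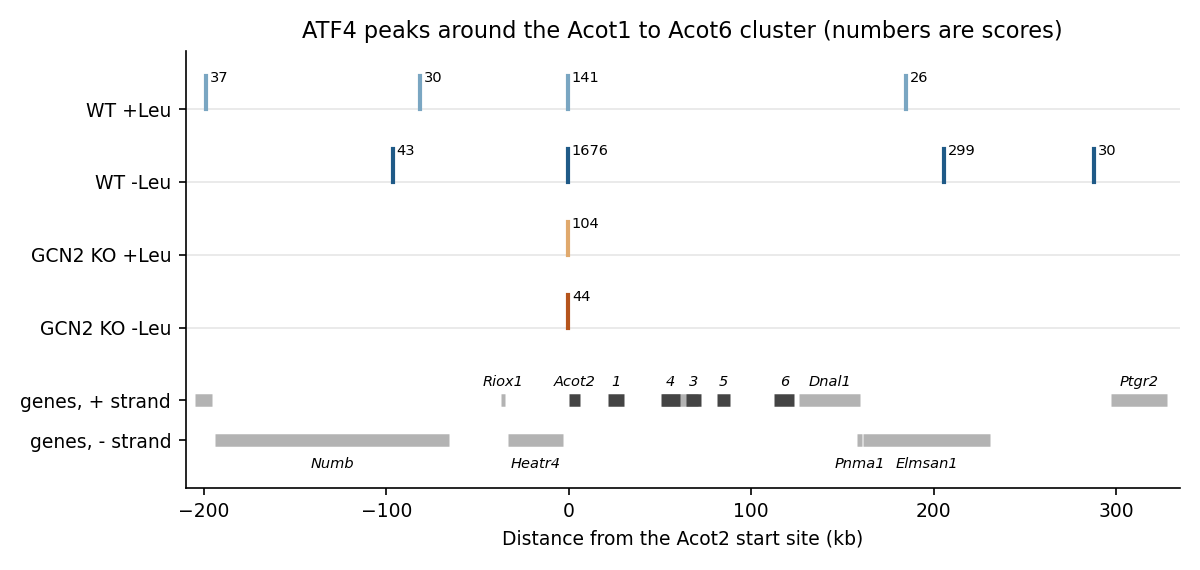
Peaks of the 4 lists (ticks, with their scores) by distance in kb from the Acot2 TSS, above the genes of the + and - strands (Acot genes dark, with 1, 3, 4, 5 and 6 standing for Acot1 and Acot3 to Acot6). A peak of every list stands at Acot2, none lies over the remaining Acot genes, and the 6 other peaks are from the WT lists, which are longer.

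Acot7, a mainly cytosolic enzyme abundant in brain, was the other member with a peak near its TSS (5 kb or less). In WT +Leu a peak at chr4:152186110-152186410 in exon 1 of 9 of a transcript (NM_001146057), 126 bp from the TSS, scored 66 and ranked 180 of 4850 (96.3rd percentile). No peak was named for Acot7 in WT -Leu or GCN2 KO -Leu. In GCN2 KO +Leu a different peak, at chr4:152222288-152222588 in intron 3 of 8, scored 33 and ranked 1172 of 3566 (67.2nd percentile). Its listed distance of 22.6 kb is from a start farther inside the gene than the start used for the WT peak. Neither held TGATGNAA. Neither had a partner (a center within 300 bp) in another list, as was usual, since 6.37% of all peaks had 1.

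Acot12, a cytosolic enzyme that hydrolyses acetyl-CoA, was named for 1 peak, in WT +Leu at chr13:91710887-91711187. This peak was 30.5 kb upstream of the TSS, over a LINE repeat (Lx5), scored 30 and ranked 1835 of 4850. Repeats made up 57.5% of its bases, and its sequence recurred in the genome. Acot11, an enzyme known from brown fat, was named for 2 intergenic peaks in WT -Leu. The peak at chr4:106836483-106836783, 36.8 kb from the TSS, scored 25 and ranked 4213 of 6374. The peak at chr4:106855377-106855677, 55.7 kb from the TSS, scored 17 and ranked 5850, with 46.2% of its bases in repeats. Its sequence also recurred in the genome, with 165463 blastn matches against 6681 for the Acot12 window. These 3 peaks were at or below the median score of their list and, like most peaks, had no partner in another list. Acot8, a peroxisomal enzyme on the minus strand of chromosome 2, had no peak, and the nearest lay 185 to 311 kb from its TSS.

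Counted by list, the members had 3 peaks with leucine and 3 without it in WT, and 2 with leucine and 1 without it in GCN2 KO. Of the 10 genes, those that had a peak at most 5 kb from a TSS were 2 in WT +Leu (Acot2 and Acot7), beside 3.03% of all protein-coding genes. In each of the other lists it was Acot2 alone, 1 of 10, beside 4.40% without leucine in WT, and 2.27% with leucine and 1.61% without it in GCN2 KO. Since Acot2 was what the members were chosen for, these counts say nothing of the family. Of the 9 member peaks, the 4 of Acot2 had a partner in another list within 300 bp and the other 5 had none, beside 6.37% of all 17462 peaks with a partner. Lacking a partner therefore does not set those 5 apart.

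Genes around this step of metabolism were counted in a list of 69, covering other thioesterases, fatty acid activation, the carnitine shuttle, mitochondrial and peroxisomal beta-oxidation, fatty acid and CoA synthesis, and their regulators. A peak within 5 kb was listed in WT for 1 of the 69 with leucine (1.45%) and 11 without it (15.9%). In GCN2 KO it was listed for 2 with leucine (2.90%) and 1 without it (1.45%), beside the 3.03%, 4.40%, 2.27% and 1.61% of all genes given for these 4 lists. Most of the genes of the list with a peak were therefore in leucine-deprived WT cells, and none of them had a peak in all lists as Acot2 did. The 69 were chosen with earlier results of these data known, and an excess over all genes was not tested.

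The 11 genes of WT -Leu scored far below Acot2. Coasy, which makes the last steps of coenzyme A, scored highest with 194 in an exon 1012 bp from the TSS, and had a peak of 15 in WT +Leu as well. Echs1, the short-chain enoyl-CoA hydratase of mitochondrial beta-oxidation, had a promoter peak of 106 at -147 bp, and no other of the 11 had a window with TGATGCAA. The other beta-oxidation genes were Acad9 (42), Eci1 (40) and the peroxisomal Decr2 (30). The carnitine shuttle and its regulation had Cpt1b (38), Mlycd (30) and Crat (29). The nuclear receptors Ppara and Ppard scored 37 and 24, and Acaca, for acetyl-CoA carboxylase, scored 19. In GCN2 KO cells the scores were 39 for Acaa1b and 24 for Slc27a1 with leucine, and 43 for Pparg without it.

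None of the 7 further thioesterases (Acot9, Acot10, Acot13, Them4, Them5, Them6 and Baat) had a peak within 5 kb. Acot10 was named for a WT -Leu peak 361 kb away that scored 47 over a LINE repeat, and Acot13 for a GCN2 KO +Leu peak in its intron 2 of 2, 12.4 kb from the TSS, that scored 28 over a SINE repeat.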

How the data were processed

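ATF4 ChIP-seq of 4 MEF libraries was analysed. Per the labels, files and methods of the study, the authors aligned reads to mm10 with BWA 0.7.12, called peaks library by library with MACS2 2.1.0 (cutoff of 0.05 on the false discovery rate) over input of that genotype, and annotated summit ±150 bp windows with HOMER 4.7. The deposited score of a peak is a whole number from the peak caller, with no stated scale and no scaling between libraries. Whether it measures the enrichment or the significance of a peak is not stated either. A ratio of scores therefore cannot be read as a fold change in bound ATF4. HOMER's distance from a TSS (bp) was deposited beside it, as were a GC fraction and a CpG fraction per window, given here in percent. The 2 input libraries were not analysed here.

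From the lists were computed ranks (ties take the best rank), percentiles (share of the list with the same or a lower score), sites shared between lists (centers at most 300 bp apart) and genes whose TSS had a peak within 5 kb, with RefSeq gene identifiers as background. Sequence was read from GRCm38, whose GC fraction differed from the listed one by less than 1e-05 at every peak on assembled chromosomes. TGATGCAA and TGATGNAA were searched on both strands. TGATGAAA was added after the data were seen. The sequence at 1 of the genes closest to Acot2 is not reported here. Python 3.11.15, pandas 2.3.3, pysam 0.24.0, Biopython 1.88, matplotlib 3.10.9 and blastn 2.17.0 (e-value 0.001) were used, and the counting steps were tested on simulated data.

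The members and lists of genes were chosen with earlier results of these data known. Every member was accounted for, and genes of the 2 lists of thioesterase and fatty acid metabolism genes were named where they had a peak within 5 kb. Genes within 200 kb of the cluster were named where they had a peak, as were the 5 genes closest to Acot2 in percentiles. Neighbours in rank and other single sites were named after their values were seen. Alternatives were a score of 30 or more, lists of equal length, other distance limits, other sets of peaks to rank in, percentile ratios and other motif settings. With 1 library per condition no test between conditions was possible, and none was run.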

Additional observations from a re-analysis of the deposited data

Results flagged for a closer look

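The Acot2 score lay on opposite sides of its +Leu value in the 2 genotypes when leucine was withheld, and is listed here for that. This was the common pattern, found at 20 of the 28 sites on assembled chromosomes that all 4 lists hold. The score without leucine was 11.9 times that with leucine in WT MEFs and 0.423 times that with leucine in GCN2 KO MEFs. The ratio of the percentiles in the lists had the same directions, at 1.01 in WT and 0.938 in GCN2 KO. In WT the percentile was already 98.9 with leucine, so its ratio had little room to rise. Each value is 1 library, the depth of the libraries is not given in the lists, and the difference between the genotypes was not tested. With no stated scale, the ratio of scores is not a fold change in bound ATF4.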

How the results depend on the processing

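Of 39 values under alternatives, 25 stayed as given. Keeping scores of 30 or more, or the 2672 strongest peaks of each list, left 1 member peak in WT -Leu in place of 3, because the Acot11 peaks were lost. Ranked among peaks within 5 kb of a TSS, Acot2 stood at the 96.3rd, 99.7th, 96.3rd and 90.6th percentiles (WT +Leu, WT -Leu, GCN2 KO +Leu, GCN2 KO -Leu), and among promoter peaks at 87.4, 98.8, 86.7 and 84.7. Ratios of percentiles were 1.01 (WT) and 0.938 (GCN2 KO) in place of 11.9 and 0.423. The WT ratio of percentiles had little room to rise, from a percentile of 98.9 with leucine. Searching TGATGNAA, or TGATGAAA (chosen after seeing the data), in place of TGATGCAA gave 4 member peaks with the motif in place of 0. Within 50 kb of an annotated start WT -Leu still counted 3 peaks, but an Espn peak 46.8 kb from an Acot7 start took the place of the farther Acot11 peak. No paired analysis was possible because each condition is 1 library without a replicate number. The unknown depth limits every comparison of scores, and weak peaks such as those of Acot11 and Acot12 lie where most of each list lies.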
